A study of Mus musculus with 6 samples.

Results

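The matrix metalloproteinases (MMPs), the ADAM and ADAMTS proteases and their tissue inhibitors (TIMPs) were examined in the inner enamel epithelium (IEE) of mouse molars that lacked *Kdf1* in epithelium. The genes were chosen by name: every row of the table whose symbol begins with Mmp, Adam, Adamts or Timp followed by a digit, apart from *Mmp9* and *Mmp20*. This rule gave 65 of 18152 genes, namely 18 MMP, 24 ADAM, 19 ADAMTS and 4 TIMP genes. Of these, 46 had enough counts to be tested among 14131 genes.

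IEE was cut by laser capture microdissection from head sections of the mandibular molar named MM1 at E18.5, late in embryonic life. Controls were *Kdf1 fl/fl* embryos with both *Kdf1* alleles floxed, named without Cre, which the sample labels call wild type. Mutants were *K14-Cre;Kdf1 fl/fl* embryos, which carry the same floxed alleles and Cre recombinase under the keratin 14 promoter, on the C57BL/6J background that the controls share. There were 3 libraries per genotype, described as biological replicates, and the number of embryos behind each is not given in the sources used here. The keratin 14 promoter is active in epithelia in general and not in the tooth alone.

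MMPs are zinc-dependent proteases that are made as inactive proenzymes and cut collagens and other matrix proteins outside the cell or at its surface. ADAMs sit in the membrane, where the catalytic ones release growth factors, cytokines and receptors, whereas the secreted ADAMTS proteases cut proteoglycans and trim procollagens. TIMPs bind the active site of these enzymes, and *Timp3* also inhibits several ADAMs and ADAMTSs. In developing teeth such enzymes take part in the turnover of the basement membrane between the IEE and the dental papilla and, later, of the enamel matrix.

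The deleted gene was read first. *Kdf1* stood at 52.5, 44.3 and 52.7 CPM in control replicates 1, 2 and 3, and at 0, 0.0629 and 0 CPM in mutant replicates 1, 2 and 3. CPM is the estimated read count per 1000000 counts of the scaled library size. Libraries held 14713918 to 16675133 counts, so that 3 counts, the limit a count of 0 allows, correspond to 0.182 to 0.198 CPM. This limit covers counting error only. Libraries correlated on the log2(CPM + 1) scale at 0.956 to 0.984 within a genotype and 0.910 to 0.972 between genotypes. The epithelial markers *Krt14*, *Krt5* and *Epcam* were present in every library, but not at an equal level. *Krt14* (log2 fold change -1.50), *Krt5* (-0.83) and *Cdh1* (-1.50) were lower in every mutant library than in every control library. *Epcam* (-0.05) overlapped, and 0 of the 8 epithelial markers had a positive fold change. Mutant replicate 1 had the highest sum of all 6 libraries for the osteoblast, osteoclast, macrophage, neutrophil, endothelial, mural and skeletal muscle marker lists. Fold changes that leaving out a library moved by more than 1.5 times are given with that library and without it.

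The summed level of the 65 genes was higher in the mutant libraries, and 1 of these stood far above the other 2. In TPM (transcripts per 1000000), a unit scaled for gene length, the sum was 1048, 1289 and 860 in the control libraries and 4888, 1665 and 1648 in the mutant libraries. Every mutant library lay above every control library. Without *Mmp13* the sums were 1032, 1272 and 857 TPM against 2480, 1488 and 1155 TPM, and the groups overlapped. In bulk RNA, a larger share of cells that express a gene and more RNA per cell cannot be told apart, and captured areas can include cells from across their border.

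**Figure D1:**
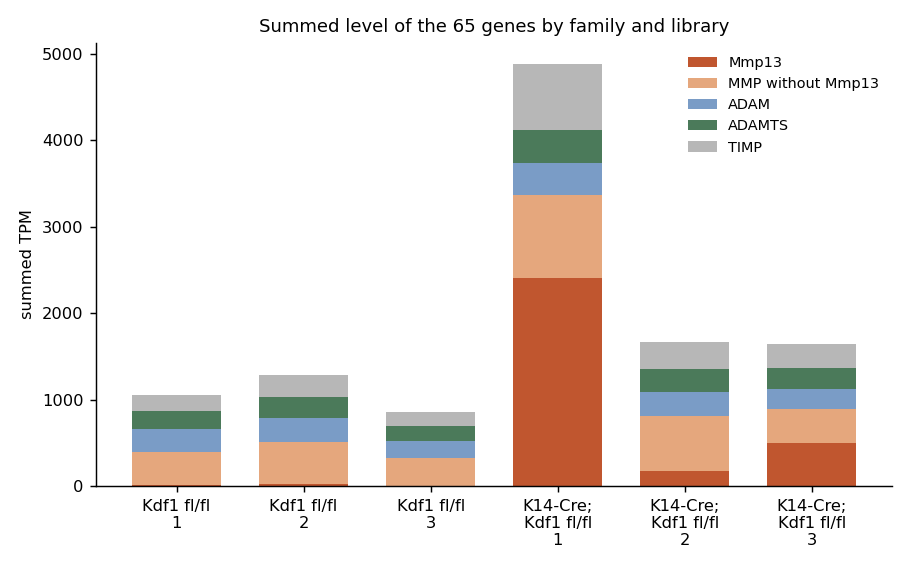
Summed TPM of the 65 genes in each of the 6 libraries (bars, linear axis from 0), stacked by family with *Mmp13* shown on its own. The *Mmp13* segment is 2.73 to 17.1 TPM in the control libraries and 177 to 2408 TPM in the mutant libraries, and mutant replicate 1 reaches 4888 TPM in all.

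In controls the most abundant of the 65 genes was *Mmp14*, the membrane-anchored protease that activates proMMP2, at 255, 288 and 219 TPM, which made up 22.4% to 25.5% of the family sum. Next came *Adam10*, the main sheddase of Notch receptors and cadherins, with a mean of 115 ± 21.6 TPM (SD, n = 3), and *Timp2* with 112 ± 26.9 TPM. These neighbours did not differ beyond their spread. *Adamts17*, a secreted protease linked to the fibrillin microfibrils of connective tissue, followed with 83.9 ± 13.8 TPM. In 2 of the 3 mutant libraries *Mmp13* took the place of *Mmp14* as the most abundant of them, and the TPM ratio of *Mmp13* to *Mmp14* was 5.51, 0.631 and 2.48 in the mutant libraries compared with 0.0125 to 0.0611 in the controls. The share of *Mmp13* in the family sum was 0.317% to 1.48% in controls and 49.3%, 10.6% and 29.9% in mutants.

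The 19 genes with too few counts to test were *Mmp1a*, *Mmp10*, *Mmp12*, *Mmp21*, *Mmp27*, *Adam1b*, *Adam2*, *Adam3*, *Adam7*, *Adam21*, *Adam28*, *Adam29*, *Adam30*, *Adam32*, *Adam34*, *Adamts8*, *Adamts13*, *Adamts16* and *Timp4*. Apart from *Adamts8*, none exceeded 11 counts in any library. *Adamts8*, a neighbour of *Adamts15*, had 7, 9 and 3 counts in the control libraries and 31, 2 and 10 in the mutant libraries. Most of the ADAM genes in this set are known from testis and epididymis.

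The comparison between genotypes asked which of these genes differ when epithelial *Kdf1* is lost. To pass the criterion, a gene needed a log2 fold change of 1 or more in size together with an adjusted p no higher than 0.05. In edgeR's quasi-likelihood F-test, adjusted by Benjamini-Hochberg over all 14131 genes, 0 of the 46 genes passed in either direction, where 0.142% of all genes tested were called higher in the mutant and 0.29% lower. At an unadjusted p of at most 0.05, 19 were higher beside 13% of all genes tested, and 1 was lower beside 11.6%. The lowest adjusted p among the 46 was 0.0637, and 6 genes, each of them higher in the mutant, had an adjusted p of at most 0.1 (13%) beside 4.35% of all genes tested. *Mmp8* and *Adamts15* are among these 6. Their control libraries alone held too few counts for a test, so they entered only through the mutant libraries, where they are high.

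With DESeq2 on the same genes, 12 of 46 (26.1%) passed as higher in the mutant beside 5.05% of all genes tested, and 0 passed as lower beside 1.88%. The labels give a replicate number but name no pairs. Deviations of same-numbered libraries from their group means correlated at 0.132, 0.353 and 0.520 for numbers 1, 2 and 3. Differently numbered libraries were not compared. On this check of the same data, a second edgeR fit took that number as a block. In that fit 9 of 46 (19.6%) passed as higher beside 4.16% of all genes, and 0 as lower beside 1.92%. *Mmp13*, *Mmp8*, *Mmp2*, *Adamts5*, *Adamts7*, *Adamts15*, *Adam11* and *Adam33* passed in both. Of these, *Mmp8* and *Adamts15* were tested only through their mutant libraries, so their calls add no support for the direction. *Mmp19*, *Adamts1*, *Adam12* and *Timp3* passed in DESeq2 alone, and *Adamts20* in the blocked fit alone.

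The counts depended on mutant replicate 1 in part. It was the highest library for 27 of the 46 genes (58.7%) beside 20.5% of all genes tested. Without it, DESeq2 called 6 genes higher (*Mmp13*, *Mmp8*, *Mmp2*, *Adamts5*, *Adam12* and *Adam33*), or 13.0% beside 2.45% of all genes. The calls of *Mmp19*, *Adamts1*, *Adamts7*, *Adamts15*, *Adam11* and *Timp3* were lost. The blocked fit without replicate 1 of both genotypes called 8 higher, or 17.4% beside 4.09%, and *Mmp13* was not among them (log2 fold change 5.22, adjusted p of 0.422 in this edgeR fit). Without mutant replicate 3, edgeR without the block called 5 genes higher (*Mmp13*, *Mmp8*, *Adamts5*, *Adamts7* and *Adam12*), or 10.9% beside 2.29%. Their adjusted p values in that edgeR fit were 0.0478 to 0.0497, all close to the threshold.

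Direction can be read without a model. All 3 mutant libraries lay above all 3 control libraries for 15 of the 46 genes (32.6%), beside 14.5% of all genes tested, and all lay below for 1 gene, *Mmp15* (2.17%), beside 16.2%. The 15 include *Mmp8* and *Adamts15*, which were tested only through their mutant libraries, so their direction adds no support. With mutant replicate 1 left out the 15 stay separate by construction, and no further gene joined them upwards, while the share of all genes became 19.1%. On the lower side *Adamts9* and *Adam4* then joined *Mmp15*, and the share of all genes for that side was not computed. Within each of the 3 replicate numbers, the mutant library was higher than the control library for 26 of the 46 (56.5%), beside 25.7% of all genes. The median log2 fold change was 0.50 over the 46 genes and -0.004 over all genes tested, with 37 of the 46 positive and 9 negative. The median was 0.45 without mutant replicate 1, with 33 of the 46 positive.

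**Figure D2:**
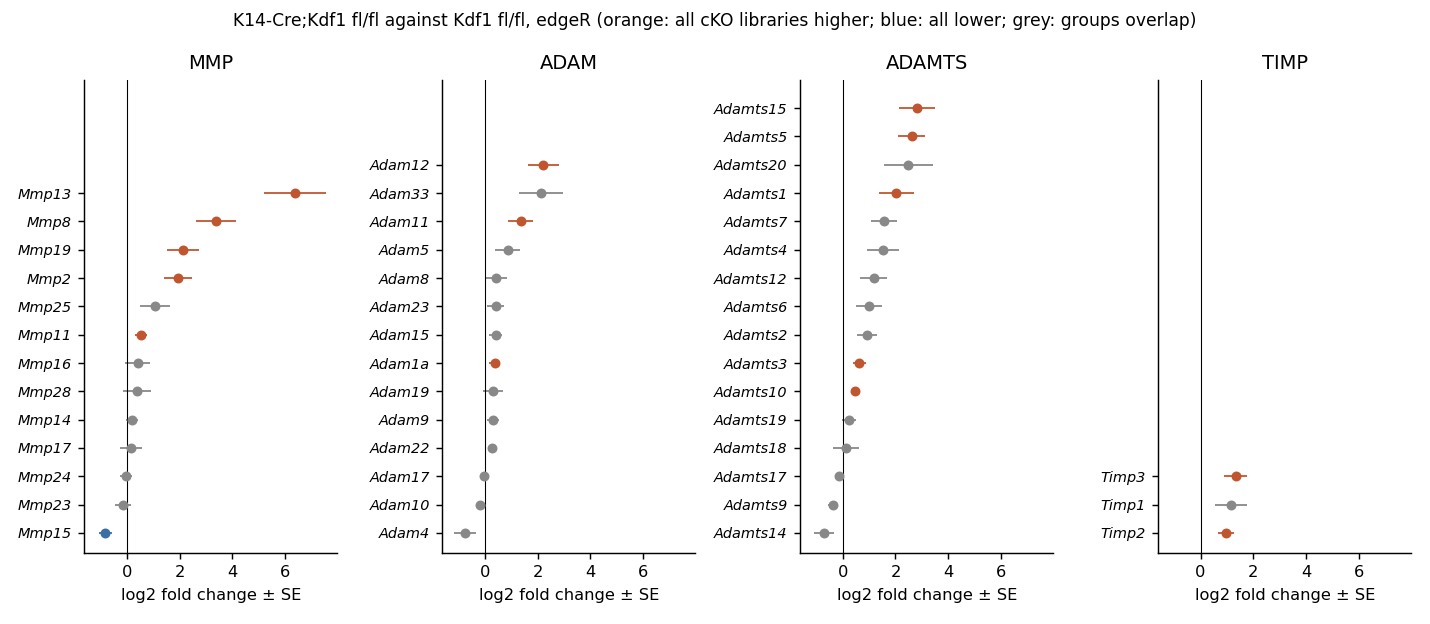
Log2 fold change of the mutant against the control with its SE (edgeR, horizontal axis) for the 46 genes tested, in 4 panels by family. Orange points are genes whose 3 mutant libraries all lie above the 3 control libraries, the blue point is *Mmp15* with all mutant libraries below, and grey points overlap. The values run from -0.81 for *Mmp15* to 6.36 for *Mmp13*.

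The collagenases had the largest log2 fold changes among the MMPs. *Mmp13* (gene ID 17386) encodes collagenase 3, which cuts fibrillar collagens and is known from hypertrophic cartilage and bone. It was at 21.7, 22.6 and 4.11 CPM in the control libraries and at 3025, 242 and 708 CPM in the mutant libraries. All mutant libraries were above all control libraries, and the ratio within replicate numbers 1, 2 and 3 was 139, 10.7 and 172. The log2 fold change was 6.36 (SE 1.17), the largest of 14131 genes, with an adjusted p of 0.0637 in edgeR, 7.59e-07 in DESeq2 and 0.0224 in edgeR with the replicate block. Leaving out 1 library at a time gave log2 values of 4.90 (without mutant replicate 1) to 6.88, and its place among all genes was 1 in these 6 fits except without control replicate 1 (7), 2 (5) or 3 (2). Ranked by TPM among all genes, *Mmp13* stood at 7664, 7571 and 11476 in the controls and at 59, 816 and 251 in the mutants.

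*Mmp8* (gene ID 17394), the neutrophil collagenase, was low in all libraries. It had 0.753, 0.666 and 0.505 CPM in the controls and 14.2, 3.27 and 2.57 CPM in the mutants. The groups were separate, and the log2 fold change was 3.37 (SE 0.75) with an adjusted p of 0.0726 in edgeR, 0.000169 in DESeq2 and 0.0186 with the replicate block. The log2 value was 2.19 without mutant replicate 1. Of the neutrophil markers, *S100a8*, *S100a9*, *Ngp*, *Ltf* and *Mpo* could be tested and each had a positive fold change, with a median log2 value of 3.39. Their list of 7 genes, which adds *Elane* and *Camp*, summed to 3.09 to 5.15 CPM in the controls and 27.3 to 68.7 CPM in the mutants, with *Elane* and *Camp* at or under the 3-count limit in every control library. The part of such cells in the *Mmp8* value was not tested. The third collagenase gene, *Mmp1a*, had 1 count in mutant replicate 3 and 0 counts in the other 5 libraries.

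In the RefSeq gene order of GRCm38.p6, *Mmp13*, *Mmp12*, *Mmp1a*, *Mmp10*, *Mmp8* and *Mmp27* lie in this order on chromosome 9, with 2 other genes between *Mmp12* and *Mmp1a*. Of these listed genes only *Mmp13* and *Mmp8* had enough counts to test, and the other 4 had at most 8 counts in a library. Other genes of this region were not read. The 150 bases before the annotated start of the 3 collagenase genes are shown because *Mmp13* and *Mmp8* had the largest log2 fold changes of the 46 genes and *Mmp1a*, which lies between them, was nearly without counts. They are from RefSeq (GRCm38.p6, plus strand, written 5′ to 3′): chr9:7272364-7272513 for *Mmp13*, chr9:7558279-7558428 for *Mmp8* and chr9:7463991-7464140 for *Mmp1a*. Capitals mark the AP-1 motif (TGACTCA, or TGAGTCA on the other strand), the RUNX motif (TGTGGTT, or AACCACA on the other strand) and a TATA box (TATAAA, read on the gene's strand in the last 60 bases), and the marked motifs do not overlap.
Mmp13: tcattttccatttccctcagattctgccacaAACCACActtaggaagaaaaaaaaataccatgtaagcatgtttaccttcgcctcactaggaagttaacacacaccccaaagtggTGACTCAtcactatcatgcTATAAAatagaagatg
Mmp8: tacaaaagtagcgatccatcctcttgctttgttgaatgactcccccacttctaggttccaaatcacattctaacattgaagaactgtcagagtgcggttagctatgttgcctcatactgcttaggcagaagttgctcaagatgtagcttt
Mmp1a: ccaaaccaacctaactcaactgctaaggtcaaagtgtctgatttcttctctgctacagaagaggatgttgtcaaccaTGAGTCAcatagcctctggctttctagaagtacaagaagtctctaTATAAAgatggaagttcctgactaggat

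Counted back from the start, the *Mmp13* window held the RUNX letters from -119 to -113, the AP-1 letters from -35 to -29 and the TATA box from -16 to -11. The *Mmp8* window held none of the 3 motifs, and the *Mmp1a* window held AP-1 and TATA letters. RefSeq windows were found for 40 of the 65 genes, 44 windows in all. Over the 250 bases before the start, AP-1 letters were in 6 of these 44 (13.6%) and in 4.46% of 32851 windows genome-wide, and RUNX letters were in 2 (4.55%) and 4.4%. A TATA box in the last 60 bases was in 4 (9.09%) and 2.87%. These matches describe letters only.

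Gelatinase A, *Mmp2* (gene ID 17390), cuts denatured collagen and collagen IV of basement membranes and is made mainly by mesenchymal cells. It was at 69.1, 201 and 62.7 CPM in the controls and at 595, 431 and 239 CPM in the mutants. Control replicate 2 and mutant replicate 3 came close to each other without overlap, and the log2 fold change was 1.92 (SE 0.53) with an adjusted p of 0.0993 in edgeR, 0.00151 in DESeq2 and 0.0328 with the block. Without control replicate 2 it was 2.67. Per length, the ratio of *Mmp2* to *Timp2* was 0.399, 0.928 and 0.408 in the controls and 1.16, 1.34 and 1.05 in the mutants. *Mmp14*, the activator of the *Mmp2* product, overlapped between the groups with 522, 560 and 484 CPM against 806, 564 and 419 CPM. Its log2 fold change was 0.19 (SE 0.24, 95% interval -0.36 to 0.75), and without mutant replicate 1 it was -0.07.

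Membrane-type MMPs also held the one gene of the 46 that was separated downwards. *Mmp15* (gene ID 17388), an MT-MMP expressed in many epithelia, was at 70.3, 45.6 and 45.7 CPM in the controls and at 36.1, 33.7 and 22.3 CPM in the mutants. The log2 fold change was -0.81 (SE 0.25). The adjusted p was 0.116 in edgeR, 0.0361 in DESeq2 and 0.0285 with the block, but the value was below the fold minimum of the criterion in each. The 8 dental epithelium markers summed to 8584 to 14353 CPM in the controls and 4994 to 7527 CPM in the mutants, with a median log2 fold change of -0.83 and 0 of 8 positive. Whether the *Mmp15* value moved with the amount of epithelium was not tested. The remaining membrane-type genes *Mmp16*, *Mmp17*, *Mmp24* and *Mmp25* overlapped between the groups, with log2 fold changes of -0.03 to 1.08. Those of *Mmp17* and *Mmp24* changed sign with single libraries left out, and that of *Mmp16* was 1.15 without control replicate 2.

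*Mmp19* (gene ID 58223), a secreted MMP that cuts basement membrane proteins, had 0.753, 1.15 and 0.948 CPM in the controls and 7.97, 1.95 and 2.50 CPM in the mutants. The groups were separate, and a log2 fold change of 2.11 (SE 0.60) had an adjusted p of 0.105 in edgeR, 0.0157 in DESeq2 and 0.0849 with the block. Without mutant replicate 1 the *Mmp19* value was 1.24, and DESeq2 no longer called it (adjusted p of 0.203). *Mmp11*, stromelysin 3, was at 33.3, 28.8 and 27.2 CPM against 57.6, 38.7 and 33.4 CPM. Mutant replicate 3 was only just above control replicate 1, and the log2 fold change of 0.54 (SE 0.22) had an adjusted p of 0.186 in edgeR. *Mmp23* and *Mmp28* overlapped between the groups with log2 fold changes of -0.13 and 0.39. That of *Mmp28* was -0.09 without mutant replicate 1, and that of *Mmp23* was 0.08 without control replicate 3. The deposited counts of *Mmp19*, *Mmp28*, *Adamts2*, *Adamts4* and *Adam1a* hold values that are not whole, so their reads may be shared with another gene and their levels are less certain.

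**Figure D3:**
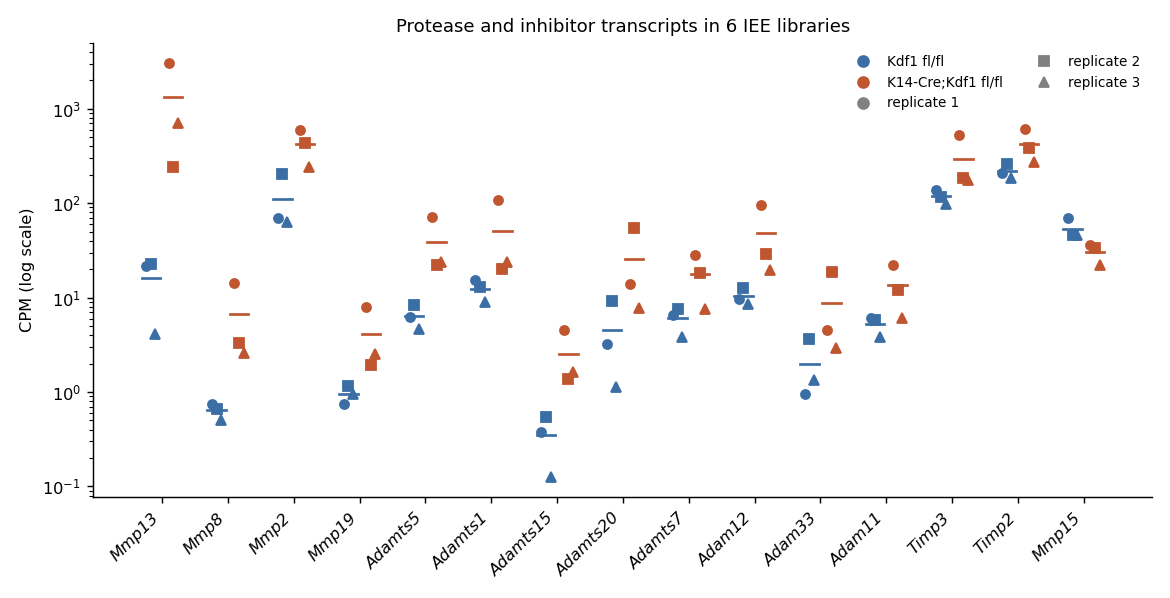
CPM of 15 of the genes on a log axis in each library (blue control, orange mutant, with a circle, square or triangle for replicate 1, 2 or 3, and a line at the mean). *Mmp13* spans 4.11 to 3025 CPM, and mutant replicate 1 is the highest library for 12 of the 15 genes, the exceptions being *Adamts20*, *Adam33* and *Mmp15*.

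Among the ADAMTS genes, those whose products cut aggrecan and versican had a median log2 fold change of 2.26 over 6 tested. *Adamts5* (gene ID 23794), a main aggrecanase of mouse cartilage, was at 6.15, 8.30 and 4.61 CPM in the controls and at 70.7, 22.4 and 23.5 CPM in the mutants. The groups were well apart, and the log2 fold change was 2.61 (SE 0.51) with an adjusted p of 0.0637 in edgeR, 5.42e-06 in DESeq2 and 0.0248 with the block. It was 1.87 without mutant replicate 1. Its neighbour on chromosome 16, *Adamts1* (gene ID 11504), which cuts versican and is known from ovulation, had 15.2, 12.9 and 8.91 CPM against 108, 20.1 and 23.8 CPM. Here mutant replicate 1 carried most of the difference: the log2 fold change of 2.04 (SE 0.66) was 0.85 without that library. The adjusted p for *Adamts1* was 0.131 in edgeR, 0.00742 in DESeq2 and 0.0670 with the block.

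*Adamts15* (gene ID 235130), another versican- and aggrecan-cleaving enzyme, was near the detection limit in controls with 0.377, 0.545 and 0.126 CPM. The mutant libraries had 4.49, 1.38 and 1.65 CPM, all above the controls. The log2 fold change was 2.81 (SE 0.68) with an adjusted p of 0.0813 in edgeR, 0.00614 in DESeq2 and 0.0346 with the block. It was 2.10 without mutant replicate 1, and DESeq2 no longer called it (adjusted p of 0.127). *Adamts4*, aggrecanase 1, overlapped between the groups with 7.28, 15.1 and 4.42 CPM against 46.3, 19.8 and 11.1 CPM, and its log2 fold change of 1.52 had an adjusted p of 0.188 in edgeR. That value was 0.79 without mutant replicate 1 and 2.13 without control replicate 2. *Adamts9*, a versican-cleaving enzyme with wide expression in the embryo, had a log2 fold change of -0.36 (SE 0.18) and overlapped. The overlap came from mutant replicate 1. Without that library the DESeq2 log2 fold change of *Adamts9* was -0.57, with an adjusted p of 0.00537, but its size stayed under the fold minimum.

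*Adamts20* (gene ID 223838), the gene of the belted coat-colour mutant and a versican-cleaving enzyme, showed how the replicate numbers enter. It was at 3.20, 9.27 and 1.14 CPM in the controls and at 14, 54.9 and 7.71 CPM in the mutants. Mutant replicate 3 lay below control replicate 2, so the groups overlapped, yet within numbers 1, 2 and 3 the mutant was 4.39, 5.92 and 6.78 times the control. The adjusted p for its log2 fold change of 2.49 (SE 0.93) was 0.164 in edgeR and 0.113 in DESeq2, and in the blocked fit the SE was 0.21 and the adjusted p 0.00422. Without mutant replicate 2 the log2 fold change was 1.28, and without control replicate 2 it was 3.55.

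**Figure D4:**
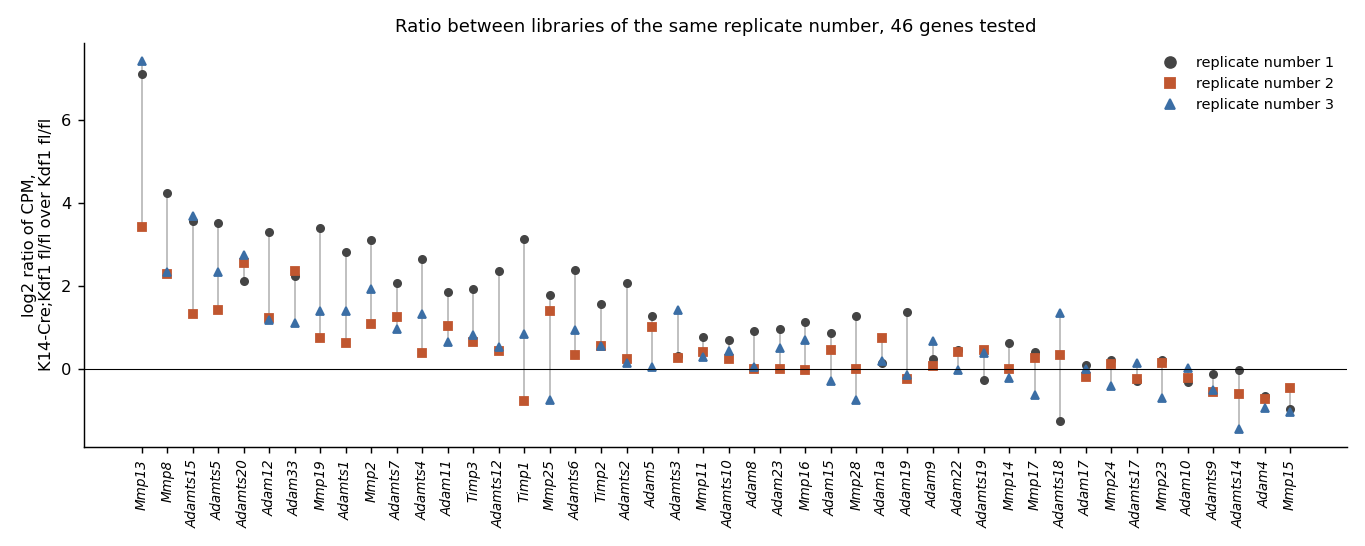
Log2 ratio of mutant to control CPM within replicate numbers 1 (circles), 2 (squares) and 3 (triangles) for the 46 genes tested, ordered by the edgeR log2 fold change, with a line at 0. For 26 genes all 3 ratios are above 0, and for *Adamts20* they lie close together, whereas for *Mmp13* the linear ratios run from 10.7 to 172.

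The procollagen N-propeptidases were moderately expressed. *Adamts3*, which processes procollagen II and the lymphatic growth factor VEGF-C, was at 51.7, 60.0 and 32.0 CPM in the controls and at 64.8, 72.2 and 86.4 CPM in the mutants. The groups were separate, and the log2 fold change of 0.64 (SE 0.24) had an adjusted p of 0.162 in edgeR. *Adamts2* (log2 fold change 0.93) and *Adamts14* (-0.70) overlapped between the groups. *Adamts7* and *Adamts12*, whose products cut cartilage oligomeric matrix protein (COMP), had log2 fold changes of 1.58 and 1.18. *Adamts7* was at 6.59, 7.57 and 3.85 CPM against 28.1, 18.2 and 7.51 CPM, with mutant replicate 3 just under control replicate 2, and an adjusted p of 0.121 in edgeR, 0.0151 in DESeq2 and 0.0241 with the block. Its log2 fold change without mutant replicate 1 was 1.10 in DESeq2, with an adjusted p of 0.163.

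*Adamts10*, a protease of fibrillin microfibrils, was at 113, 127 and 99.4 CPM in the controls and at 184, 150 and 135 CPM in the mutants. Its groups were separate, and the log2 fold change of 0.47 (SE 0.15) had an adjusted p of 0.133 in edgeR. *Adamts17*, to which *Adamts10* is related, was nearly level with 286, 308 and 252 CPM against 234, 262 and 278 CPM, and its log2 fold change of -0.13 had a 95% interval of -0.43 to 0.18. *Adamts6*, *Adamts18* and *Adamts19* overlapped between the groups. The log2 fold change of *Adamts6* was 1.00, with an adjusted p of 0.261 in edgeR, and 1.70 without control replicate 2. Those of *Adamts18* (0.12) and *Adamts19* (0.23) were -0.14 and -0.01 without mutant replicate 2.

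Of the catalytic ADAMs, 2 stood apart from the rest. *Adam12* (gene ID 11489), meltrin alpha, is known from muscle and bone precursors and from mesenchyme. It was at 9.67, 12.5 and 8.65 CPM in the controls and at 95.1, 29.3 and 19.7 CPM in the mutants, all mutant libraries above the controls. The log2 fold change was 2.22 (SE 0.58). The adjusted p was 0.0895 in edgeR, 0.000752 in DESeq2 and 0.0577 with the block, and without mutant replicate 1 the log2 value was 1.27. *Adam33* (gene ID 110751), also a gene of mesenchymal cells, was at 0.942, 3.63 and 1.33 CPM against 4.49, 18.8 and 2.90 CPM. Mutant replicate 3 lay under control replicate 2, but the mutant was 4.77, 5.16 and 2.19 times the control within numbers 1, 2 and 3. Its log2 fold change of 2.14 (SE 0.82) had an adjusted p of 0.172 in edgeR, 0.0429 in DESeq2 and 0.0217 with the block. That value was 0.93 without mutant replicate 2, under the fold minimum, and 2.93 without control replicate 2.

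The 2 main sheddases stayed within narrow intervals. *Adam10* was at 332, 290 and 246 CPM in the controls and at 268, 253 and 253 CPM in the mutants, with a log2 fold change of -0.16 (95% interval -0.49 to 0.16). *Adam17*, which releases TNF and the EGF receptor ligands, was at 87.5, 79.6 and 69.0 CPM against 94.0, 69.7 and 69.7 CPM, with a log2 fold change of -0.02 (95% interval -0.40 to 0.36) whose sign changed with single libraries left out. *Adam9*, a further cell-surface sheddase, overlapped between the groups with 101, 77.9 and 57.5 CPM against 121, 82.0 and 93.1 CPM. *Adam8*, *Adam15* and *Adam19* also overlapped, with log2 fold changes of 0.33 to 0.45, and that of *Adam8* was -0.06 without mutant replicate 1.

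*Adam11* is a catalytically inactive ADAM of neurons. It was at 6.09, 5.75 and 3.85 CPM in the controls and at 22.3, 11.9 and 6.13 CPM in the mutants, the lowest mutant value being just above the highest control value. The log2 fold change of 1.36 (SE 0.47) had an adjusted p of 0.141 in edgeR, 0.0371 in DESeq2 and 0.0454 with the block. The DESeq2 log2 fold change without mutant replicate 1 was 0.79, with an adjusted p of 0.285. *Adam22* and *Adam23*, which bind LGI proteins at synapses, overlapped with log2 fold changes of 0.28 and 0.42. *Adam1a*, a sperm fertilin gene, was separate but close, with 6.15, 5.21 and 6.25 CPM against 6.90, 8.75 and 7.19 CPM. Its log2 fold change was 0.37 (SE 0.22), and its adjusted p in edgeR was 0.328. *Adam4* and *Adam5* were near 1 CPM and overlapped.

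All 3 tested inhibitors had positive log2 fold changes. *Timp3* (gene ID 21859), which is bound to the matrix, was at 139, 116 and 98.5 CPM in the controls and at 532, 183 and 176 CPM in the mutants. The groups were separate, and the log2 fold change of 1.34 (SE 0.44) had an adjusted p of 0.133 in edgeR, 0.0153 in DESeq2 and 0.0506 with the block. Leaving out mutant replicate 1 gave 0.63. *Timp2*, an inhibitor that also takes part in proMMP2 activation, had 207, 259 and 184 CPM against 615, 384 and 273 CPM. Its groups were separate too, and its log2 fold change, 0.97 (SE 0.30), was just under the fold minimum, with an adjusted p of 0.119 in edgeR, 0.0183 in DESeq2 and 0.0584 with the block. In DESeq2 without mutant replicate 1 the log2 fold change was 0.61, with an adjusted p of 0.113.

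*Timp1*, a secreted inhibitor induced by cytokines, overlapped between the groups with 6.78, 22.2 and 17.6 CPM against 59.7, 13.2 and 31.6 CPM. Within replicate number 2 the control was the higher library, and the log2 fold change of 1.17 (SE 0.60) had an adjusted p of 0.275 in edgeR and was 0.54 without mutant replicate 1. *Timp4* was under the filter, with 1 count in each control library and 11, 7 and 2 counts in the mutant libraries. The sum of the 4 TIMP genes was 179, 254 and 169 TPM in the controls and 767, 313 and 289 TPM in the mutants. Per length, the sum of the MMPs over that of the TIMPs was 2.17, 2.02 and 1.90 in the controls and 4.39, 2.59 and 3.09 in the mutants. Without *Mmp13* this ratio was 2.08, 1.95 and 1.88 in the controls and 1.25, 2.02 and 1.38 in the mutants, so the mutants were above the controls only with *Mmp13* counted. These are ratios of RNA and say nothing of enzyme activity.

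Genes that act with these proteases were read from a list of activators, receptors, other inhibitors, ADAMTS-like proteins, further zinc proteases and lectican substrates, of which 40 were tested. In edgeR 0 of them passed the criterion, and at an unadjusted p of at most 0.05 there were 10 higher (25%) and 4 lower (10%), beside 13% and 11.6% of all genes. DESeq2 called 7 higher (17.5%) and 1 lower (2.5%), and so did the blocked fit, beside the 5.05% and 1.88% of all genes in DESeq2 and the 4.16% and 1.92% in the blocked fit. DESeq2 without mutant replicate 1 kept *Plat*, *Serpine2*, *Spock1* and *Papln*. The median log2 fold change of the list was 0.36. *A2m* and *Acan*, called higher in DESeq2 and in the blocked fit, were tested only through their mutant libraries, so their calls add no support for the direction.

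Of the 8 inhibitors tested among them, 7 had positive log2 fold changes and 1, *Papln*, had a negative one. *Serpine2*, protease nexin 1, which inhibits plasminogen activators and thrombin, was at 145, 95.6 and 98.0 CPM in the controls and at 692, 227 and 260 CPM in the mutants, with separate groups. The log2 fold change was 1.80 (SE 0.45), and the adjusted p was 0.0842 in edgeR, 0.00047 in DESeq2 and 0.0124 with the block. Its log2 value was 1.13 without mutant replicate 1. *Papln*, papilin, an ADAMTS-inhibiting protein of basement membranes, was at 529, 578 and 1084 CPM against 308, 250 and 378 CPM. All mutant libraries lay below the controls, and the log2 fold change of -1.23 (SE 0.30) had an adjusted p of 0.0842 in edgeR, 0.00226 in DESeq2 and 0.0155 with the block. The deposited counts of *Papln* are not whole, so its reads may be shared with another gene and its level is less certain. *Reck*, a membrane-anchored MMP inhibitor, was at 25.2, 64.9 and 31.5 CPM against 71.4, 116 and 57.5 CPM. It overlapped with a log2 fold change of 1.01 and passed only in the blocked fit (adjusted p of 0.0155 in edgeR with the block). *A2m*, the plasma protease trap, overlapped as well, at 0.565, 0.909 and 0.253 CPM against 5.38, 4.22 and 0.659 CPM. It had a log2 fold change of 2.55 and passed in both fits with adjusted p values of 0.0237 in DESeq2 and 0.0267 in edgeR with the block. The testican gene *Spock1* was at 4.65, 9.02 and 4.11 CPM against 21.5, 32.0 and 8.37 CPM, with a log2 fold change of 1.80, and passed in both. *Spock2*, of the same family, was at 73.3, 72.1 and 50.5 CPM against 91.6, 125 and 112 CPM, separate between the groups, with a log2 fold change of 0.75.

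Tissue plasminogen activator, encoded by *Plat*, turns plasminogen into plasmin, which activates several proMMPs. *Plat* was at 12.1, 11.9 and 10.9 CPM in the controls and at 58.0, 33.2 and 19.1 CPM in the mutants. Its groups were separate, and its log2 fold change of 1.66 (SE 0.38) had an adjusted p of 0.0735 in edgeR, 0.000573 in DESeq2 and 0.0276 with the block. The proprotein convertase gene *Pcsk6* was at 17.3, 22.9 and 8.72 CPM against 32.5, 49.3 and 11.9 CPM, which overlap (log2 fold change 0.94). *Tspan5*, a tetraspanin that guides ADAM10, was at 90.8, 77.7 and 62.9 CPM against 106, 109 and 162 CPM, which do not (log2 fold change 0.70). Both were under the fold minimum. Of the ADAMTS-like genes, *Adamtsl1* was at 25.4, 23.9 and 16.3 CPM against 58.3, 34.5 and 50.6 CPM, had a log2 fold change of 1.13 and passed in both fits. *Adamtsl4* was at 3.96, 3.69 and 4.17 CPM against 14.9, 6.36 and 5.80 CPM, had 1.19 and passed in DESeq2 alone. Both were separate between the groups. *Mme*, the zinc protease neprilysin, was at 414, 357 and 558 CPM against 228, 183 and 296 CPM with separate groups. Its log2 fold change of -0.91 (SE 0.23) had an adjusted p of 0.0872 in edgeR. *Acan*, the aggrecan substrate of *Adamts4* and *Adamts5*, was low, with 0.314, 0.666 and 0.126 CPM against 6.77, 2.71 and 1.05 CPM. Its log2 fold change was 3.22 (SE 0.83). It passed in both fits with adjusted p values of 0.00378 in DESeq2 and 0.0241 in edgeR with the block. Its log2 value was 2.33 without mutant replicate 1, where DESeq2 no longer called it (adjusted p of 0.117), and 3.94 without control replicate 2.

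Marker lists of other cell types went in different directions between the genotypes. In summed CPM, every mutant library lay above every control library for the osteoclast and neutrophil lists only. The 5 osteoclast markers summed to 30.6 to 52.9 CPM in the controls and 95.5 to 476 CPM in the mutants, and each of the 4 tested had a positive fold change, with a median log2 value of 2.36. Of the 4 osteoblast markers, 2 of 4 were positive and the sums were 241 to 424 CPM against 376 to 658 CPM. The 7 macrophage markers summed to 26.9 to 55.6 CPM against 39.4 to 161 CPM, with 7 of 7 positive. For endothelium (6 of 6 positive) the sums were 258 to 323 CPM against 299 to 872 CPM, and for mural cells (4 of 4 positive) 259 to 287 CPM against 284 to 851 CPM.

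Markers of mesenchyme were present in every library, summing to 4008 to 21555 CPM in the controls and 12052 to 13216 CPM in the mutants. Of that sum, *Col1a1* alone was 2062, 12956 and 8374 CPM against 4368, 5560 and 7036 CPM. The 3 negative genes were *Col1a1* (log2 fold change -0.46), *Col1a2* (-0.53) and *Dcn* (-0.05, or 0.65 without control replicate 2), which overlapped. The other 7 of 10 were positive, and 5 of 10 were separate upwards, beside 14.5% of all genes tested. Of the latter, the mesenchymal transcription factor gene *Prrx1* was at 21.9, 40.3 and 15.5 CPM against 266, 116 and 86.0 CPM, and its fellow *Twist1* at 9.29, 16.5 and 8.97 CPM against 75.9, 45.8 and 41.9 CPM. The odontoblast markers *Dspp* and *Dmp1* went the other way, summing to 519 to 3738 CPM in the controls and 54.6 to 576 CPM in the mutants. Of the 6 muscle markers, *Myod1* was at or under 0.0632 CPM in all libraries. The 2 tested, *Acta1* and *Des*, were positive, and the sums were 1.94 to 4.52 CPM against 3.03 to 9.43 CPM. Of the 4 cartilage markers, *Comp* was at or near the 3-count limit, and the sums were 92.7 to 102 CPM against 73.2 to 90.1 CPM. Of the 3 tested, *Acan* and *Col2a1* were positive and separate upwards, and *Sox9* was separate downwards. The part of these cell types in the protease and inhibitor values was not tested.

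**Figure D5:**
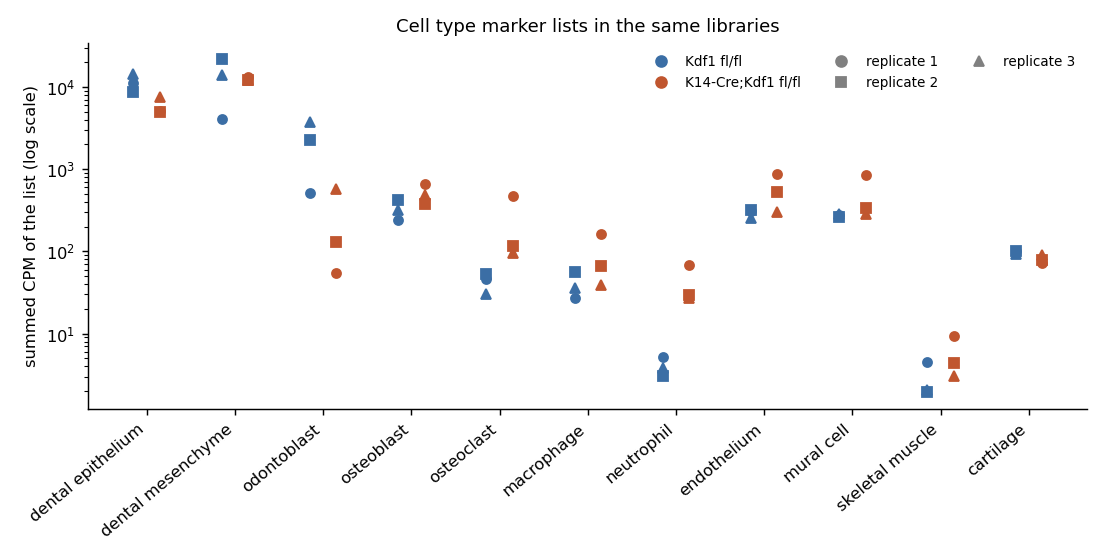
Summed CPM of 11 marker lists (log axis) in each library, blue for control and orange for mutant, with a circle, square or triangle for replicate 1, 2 or 3. The mutant libraries lie above the controls for the osteoclast and neutrophil lists, at 95.5 to 476 CPM and 27.3 to 68.7 CPM. They lie below the controls for the epithelial and cartilage lists, and the other lists overlap.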

How the data were processed

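RNA-seq of the IEE of MM1 at E18.5 was analysed in 3 control and 3 mutant libraries, grouped by the sample labels, with mice named as in the study's methods. The authors deposited 1 table of 18152 genes. Its estimated counts are the authors' reads per gene without normalisation, and 10.9% to 11.5% of values in a library are not whole, so reads shared between overlapping or similar genes may be split. The deposited TPM values are scaled by the authors for length and library and served for levels between genes. The deposited FPKM values, scaled by the authors for length and library size, were not used. The submitters' processing notes name BWA 0.7.12, Picard 2.6.0 and StringTie. Genome build, counting program, strand setting and test are not given in the sources used here, so antisense reads cannot be told apart. Columns with the authors' group means were not used, and 0 columns of single samples were left out.

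Counts were rounded. In R 4.3.3, edgeR 4.0.16 was run with filterByExpr, TMM scaling and robust quasi-likelihood F-tests, two-sided, with Benjamini-Hochberg adjustment over 14131 genes. The criterion asked for a log2 fold change of 1 or more in size and an adjusted p no higher than 0.05. Alternatives were DESeq2 1.42.0, its size factors, library size alone, no filter, at least 10 counts in every library, limma 3.58.1 (voom, and a trend on log2(TPM + 1) and log2(TPM + 0.1)), a replicate block, other thresholds and leaving out each library. The scripts were tested on simulated data.

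Replicates of a group differed by a chi-square of at least 36.0 per gene, so none was a duplicate. The p values measure the spread between these libraries. Deviations of same-numbered libraries from their group means correlated at 0.132, 0.353 and 0.520 for numbers 1, 2 and 3. On this check alone the numbers were treated as pairs in the blocked fit. The labels name no pairs, and differently numbered libraries were not compared. Described with full values were each TIMP gene, up to 25 genes with the largest changes whose groups do not overlap or whose adjusted p is at most 0.05 in edgeR, DESeq2 or the blocked fit, the 10 most abundant genes, and genes of the partner list past that adjusted p. Other genes were named after their values were seen. The members, their roles and all lists were chosen with earlier results of these data known.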

Additional observations from a re-analysis of the deposited data

How the results depend on the processing

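The count of protease and inhibitor genes past the criterion depended on the test. It was 0 higher in edgeR, 12 in DESeq2 and 9 with the replicate block, beside the shares of all genes given above. With the fold minimum kept and an unadjusted edgeR p of at most 0.05 it was 14. The share of all genes past both limits was not computed, so this 14 cannot be read as a result about the family. Of all genes, 13% were higher at that p alone and 9.23% past the fold minimum alone. Leaving out 1 library gave 0 to 5, with 5 only without mutant replicate 3, beside 2.29% of all genes. The count stayed at 0 with the other scalings, filters, limma fits and with no fold minimum. For the 40 partner genes, both directions together, the count was 0 in edgeR, 8 in DESeq2 and 8 with the replicate block. It was 9 at that unadjusted p with the fold minimum kept, again without a computed share of all genes to read it against. With 1 library left out it was 0 to 5. The 5 of 41 tested came only without mutant replicate 3 and were all higher (12.2% beside 2.29% of all genes). *Spock3*, not among the 40, was 1 of the 5. In fits chosen after seeing the data, DESeq2 without mutant replicate 1 gave 6 for the family and 4 for the partner genes. These 4 were 3 higher (7.5% beside 2.45% of all genes) and 1 lower (2.5% beside 1.6%). The replicate block without replicate 1 of both genotypes gave 8 and 6. These 6 were 5 higher (12.5% beside 4.09%) and 1 lower (2.5% beside 2.14%). The count of lower genes of the family was 0 in each of these settings. Among the genes named, the block changed no call other than those stated in the report. The direction of *Mmp14* turned, with a log2 fold change of -0.0727 without mutant replicate 1, the lowest value with 1 library left out, where the highest was 0.412 without mutant replicate 3. The cause of these differences was not tested. The median log2 fold change of the family ranged from 0.45 to 0.87 over the settings. Among all genes, 70 of the 77 with an edgeR adjusted p of at most 0.05 lay between 0.049 and 0.05, close to the threshold. At 3 libraries per group and 14713918 to 16675133 counts per library, genes under about 1 CPM rest on few counts.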
